A study of Mus musculus with 7 samples.

Results

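Thymic leukemias of TEL-JAK2 mice were described array by array, to show how far leukemias with the same driver resembled one another and which genes and programs set them apart. The series held 7 arrays, and the 4 labelled with the genotype TEL-JAK2 were used. Each held total RNA from a cell suspension made from the leukemic thymus of a terminally ill C57Bl/6 mouse, collected on ice, dissociated, filtered and lysed without a named sorting step. All 4 share the strain, the tissue, the genotype and the disease state, and none of the sources used states the age, the promoter that drives the fusion or any pooling of animals. The arrays are called replicates 1 to 4, numbers that only name them. The sources do not state outright that the 4 suspensions came from separate animals, so the spread below is that between these samples.

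TEL-JAK2 joins the oligomerization domain of the transcription factor TEL (ETV6) to the kinase domain of JAK2, which leaves the kinase switched on and phosphorylates STAT5 without a cytokine. In mice the fusion gives T-cell leukemia, which fills the thymus with cells arrested along the path from immature thymocytes to CD4 and CD8 double-positive cells. A leukemic thymus also holds macrophages, dendritic cells, B cells, fibroblasts, epithelium and vessels, and a suspension that was not sorted reports all of them at once. In such a bulk sample, fewer cells of a type and less RNA per cell cannot be told apart.

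Values are log2 intensities, so a difference of 1 is 2-fold, and each of 17567 genes is represented by 1 probe set, the one with the highest mean over the 4 arrays. Genes on the X and Y chromosomes were left out of that count. With 1 group there is no contrast to test, and the spread of a gene is given by its range, which is the highest minus the lowest of the 4 values, and by its standard deviation (SD, n = 4). The arrays had medians between 5.45 and 5.50, and the number of arrays limits the precision. Levels of different genes come from different probe sets, so an order of brightness is no order of transcript number.

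The labelled cell type was read from T-lineage markers. Cd3d, a chain of the CD3 complex, read 13.71, 13.63, 13.90 and 13.61 on replicates 1 to 4. The coreceptor chain Cd8a read 13.55, 13.35, 13.72 and 12.99, and Cd4 read 10.67, 9.70, 10.78 and 8.65. T-lineage markers were bright on all 4 arrays, and of these genes Cd4 had the widest range, 2.13. Jak2 read 10.15, 9.82, 10.20 and 9.86, and Etv6, the mouse counterpart of TEL, read 8.44, 8.20, 8.05 and 8.86. None of the sources used states whether either probe set detects RNA of the fusion.

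The brightest genes were shared by the 4 leukemias. The 20 genes with the highest means, between 14.02 and 14.63, included 14 genes of ribosomal proteins, such as Rpl37a, Rps14 and Rpl13a. With them stood Tpt1, a translationally controlled protein, Tmsb10, an actin-binding thymosin, Actb, cytoplasmic actin, Eef1a1, a translation elongation factor, and B2m, the light chain of MHC class I. The remaining gene of the 20 was Gzma, granzyme A, a serine protease of cytotoxic granules, at 14.31, 14.03, 14.26 and 14.59. Its range of 0.56 was the widest among the 20, and all 4 arrays were bright. The 5 steadiest genes with a mean of 9 or more were Rpl13a, Rps15, Purb, Rps3a1 and Egln2, whose SD lay between 0.00785 and 0.0140.

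Most genes differed little among the 4 leukemias. The median SD was 0.165, with 0.0720 at the 10th percentile and 0.453 at the 90th, and the median range was 0.37. A range over 2-fold was found for 1800 of 17567 genes (10.2%), over 4-fold for 465 (2.65%) and over 8-fold for 160 (0.911%). Without replicate 4 the counts over 2-fold and 4-fold were 1102 and 290, and without replicate 3 they were 1134 and 270. Replicates 1 and 3 were the closest pair, with a Pearson correlation across 45037 probe sets of 0.989 and 457 genes more than 2-fold apart. Replicates 3 and 4 were the farthest, at 0.975 and 1171 genes. Of the 1800 genes with a range over 2-fold, replicate 4 was highest for 34.7%, replicate 2 for 29.1%, replicate 3 for 21.6% and replicate 1 for 14.7%. Replicate 3 was lowest for 49.2%, replicate 4 for 22.7%, replicate 1 for 15.0% and replicate 2 for 13.1%.

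**Figure D1:**
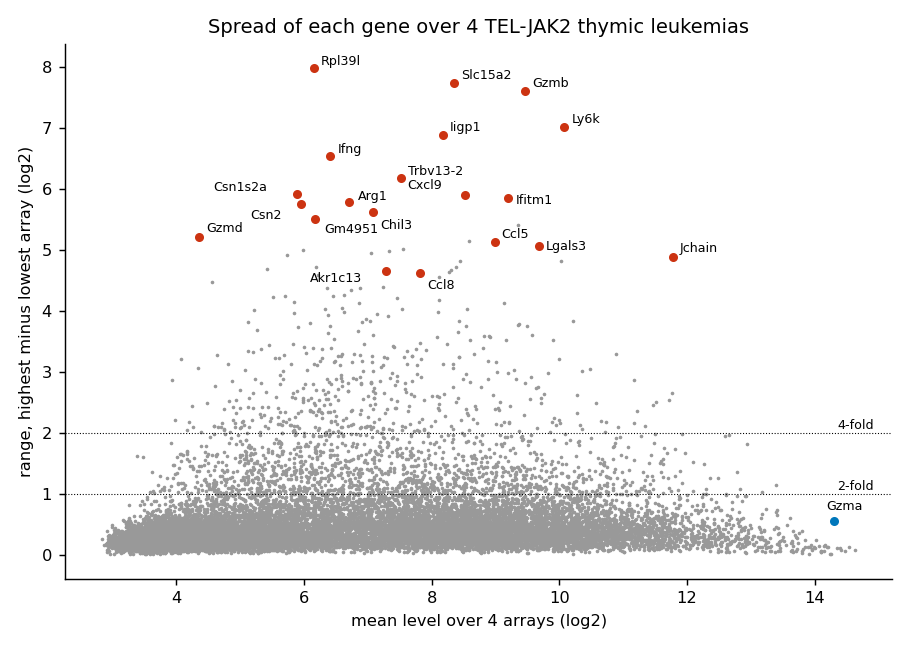
Each point is 1 of 17567 genes, with its mean log2 level over the 4 arrays on the horizontal axis and its range (highest minus lowest array, log2) on the vertical axis; red points are the 20 genes with the largest SD, blue is Gzma, and dotted lines mark ranges of 2-fold and 4-fold. Most genes lie under the 2-fold line, the red points reach a range of 7.98 (Rpl39l), and Gzma lies at the bright end with a range of 0.56.

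A few genes were dim on some leukemias, which here means a log2 level under 6, and among the bright genes on others. Slc15a2, a transporter of small peptides, had the largest SD (4.22), at 11.68, 4.84, 12.32 and 4.58 on replicates 1 to 4. It was high on replicates 1 and 3 and dim on the other 2. Its 2 further probe sets read at most 5.22 and 4.50 on any array, so the difference rests on 1 probe set. Gzmb, granzyme B, which triggers death of target cells, had the next largest SD (3.93), at 6.51, 13.28, 5.67 and 12.41. Here replicates 2 and 4 were the high ones. Rpl39l, a paralog of a ribosomal protein gene that is best known from testis, read 4.99, 11.80, 3.82 and 3.99, so that replicate 2 alone was high.

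Of the 20 genes with the largest SD, 11 were high on replicates 2 and 4 and low on replicates 1 and 3. They comprised the type 1 cytokine Ifng (3.70, 10.24, 3.71 and 7.98), the chemokines Cxcl9, Ccl5 and Ccl8, and the interferon-induced genes Iigp1, Ifitm1 and Gm4951. They also comprised Gzmb and 3 genes known from activated macrophages, Arg1 (arginase), Chil3 (a chitinase-like lectin) and Lgals3 (galectin 3). Arg1 read 4.07, 9.85, 4.18 and 8.72, and Cxcl9 read 6.94, 11.18, 5.26 and 10.74. In each of these 11 genes the lower of replicates 2 and 4 stood above the higher of replicates 1 and 3. That grouping is what the pattern measures, and it is not a test.

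The remaining genes of the 20 followed other arrays. Ly6k, a GPI-anchored surface protein, read 12.14, 11.51, 5.12 and 11.54, with replicate 3 alone low, and a dim further probe set read between 4.51 and 4.93. The milk protein genes Csn1s2a (4.90, 4.26, 4.23 and 10.14) and Csn2 (4.93, 5.41, 3.86 and 9.61) were high on replicate 4 alone. Gzmd, a granzyme of the same gene cluster as Gzmb, read 2.97, 2.99, 3.26 and 8.18. Replicate 4 was thus the high array for both caseins and for Gzmd. Trbv13-2, a variable segment of the T cell receptor beta chain, read 10.06, 4.48, 10.66 and 4.88, and Jchain, the joining chain of secreted antibodies, read 13.99, 10.23, 13.78 and 9.10. These 2 were high on replicates 1 and 3, as Slc15a2 was. Akr1c13, an aldo-keto reductase, read 9.09, 6.15, 4.62 and 9.27 and had the smallest SD of the 20 (2.28). Just outside the 20 stood Iglv1 (2.28) and Zfp982 (2.27).

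**Figure D2:**
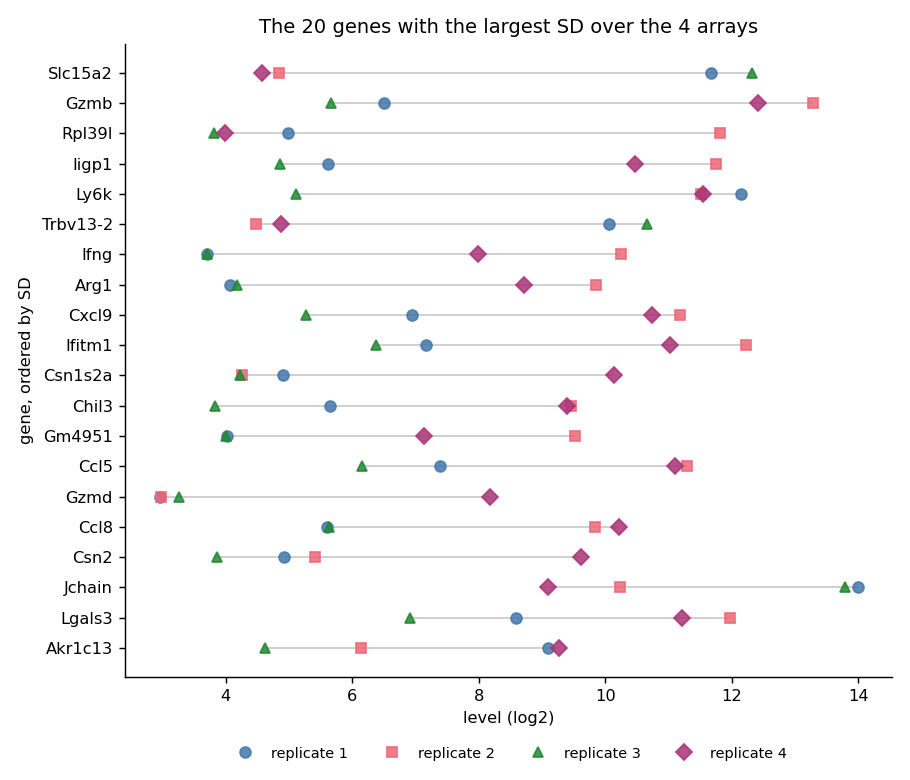
The 20 genes with the largest SD, ordered by SD from top to bottom, with the log2 level of each of the 4 arrays on the horizontal axis (1 marker per replicate, the line joins lowest and highest). Replicates 2 and 4 lie together at the right for 11 of the 20 genes, among them Gzmb (13.28 and 12.41), and at the left for Slc15a2 (4.84 and 4.58).

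Genes were then sorted by the arrays on which they were high. Each gene's 4 values were put in order and split at the widest gap, so that a gene is high on the arrays above that gap, which gives 14 possible patterns. Among the 465 genes with a range over 4-fold, 107 (23%) were high on replicates 2 and 4, against 6.49% of all genes. Another 92 were high on replicates 1, 2 and 4, that is, low on replicate 3 alone, and 92 were high on replicate 4 alone. These are 19.8% each, against 8.80% and 9.71% of all genes. The next patterns held 38 genes low on replicate 4 alone, 37 high on replicate 2 alone and 24 high on replicate 3 alone. The shares of all genes are a description of the same table and not a chance expectation.

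**Figure D3:**
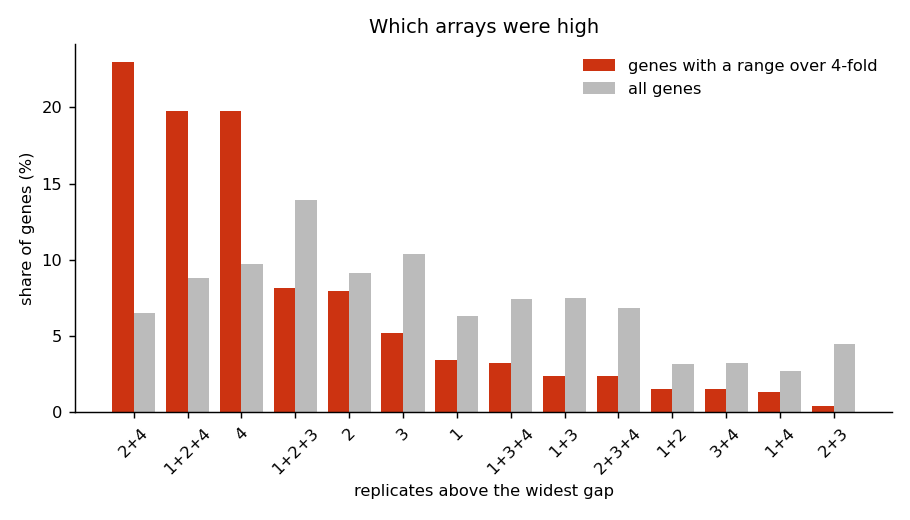
Bars give the share of genes (%, vertical axis, from 0) in each of the 14 patterns, named by the replicates above the widest gap (horizontal axis), for the 465 genes with a range over 4-fold (red) and for all 17567 genes (grey). Patterns 2+4, 1+2+4 and 4 hold 23%, 19.8% and 19.8% of the red genes, against 6.49%, 8.80% and 9.71% of the grey.

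A second measure of the same RNA came from further probe sets of the same genes, which had not been used to rank them. Of the genes with a range over 4-fold, 99 had a further probe set with a mean of 6 or more. In 90 of the 99 (90.9%) it was highest on the same array, in 89 (89.9%) lowest on the same array, and in 80.8% it gave the same pattern. Among 3740 genes with a range of 2-fold or under, 53.8% were highest on the same array. Probe sets of 1 gene share the RNA extract and the array, so they are not replicates of a leukemia.

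Replicate 4 also stood apart in sex-linked transcripts, which were not among the genes described. Xist, the RNA that silences an X chromosome, read 13.25, 13.12, 13.36 and 5.19, and the Y-linked gene Eif2s3y read 3.21, 3.18, 3.29 and 10.23. The Y-linked genes Kdm5d (3.93, 3.68, 3.89 and 5.94) and Uty (3.96, 4.30, 3.95 and 6.55) were also highest on replicate 4. These values read as a male sample on replicate 4 and as female samples on replicates 1 to 3, and the labels give no sex. Sex cannot be told apart from whatever else sets replicate 4 apart in the autosomal genes of the patterns 4 and 1+2+3. The numbers of genes more than 2-fold above all 3 other arrays were 188 on replicate 4, 76 on replicate 2, 50 on replicate 3 and 29 on replicate 1. Below all 3 others, they were 152 on replicate 3, 77 on replicate 4, 29 on replicate 2 and 12 on replicate 1.

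Since sets of genes moved together, their promoters were searched for 2 motifs read by STAT and IRF factors, the factors that act below JAK kinases and interferons. The interferon-stimulated response element was searched as GAAA, any 2 bases and GAAA again, on both strands, and the STAT site (GAS) as TTCNNNGAA, which reads the same on both strands; the motifs can overlap each other. Promoters were the 250 bases before the transcription start in RefSeq (GRCm38.p6). Of 32851 promoters in all, 2.98% held the first motif and 7.02% the second. Of the 358 genes over 4-fold that had a promoter in the table, 30 (8.38%) held the first and 32 (8.94%) the second, against 3.16% and 7.47% of the 13917 measured genes. Among 30 genes high on replicate 2 alone, 7 (23.3%) held the first motif and 2 (6.67%) the second. Among 90 genes high on replicates 2 and 4, 7 (7.78%) held the first and 12 (13.3%) the second, and among 66 genes low on replicate 3 alone, 8 (12.1%) held the first and 7 (10.6%) the second. Among 65 genes high on replicate 4 alone, 2 held the first and 4 the second. A match is a run of letters and not a bound site. The promoters of 4 genes with a match are shown with the matching letters in capitals, 5′ to 3′ on the strand of the gene, for genes of the patterns 2, 2+4 and 4 whose levels are given here; they were chosen after their values were seen. Gbp2, an interferon-induced GTPase (chr3:142620413-142620662, plus strand), has the first motif on its minus strand at bases -59 to -50 from the start. Ifng (chr10:118440796-118441045, plus strand) has the second at -249 to -241. Samhd1, a dNTP hydrolase that restricts viruses (chr2:157135097-157135346, minus strand), has the second at -235 to -227. Csn2, beta-casein, a known STAT5 target of the mammary gland (chr5:87699426-87699675, minus strand), has the second at -93 to -85.
Gbp2: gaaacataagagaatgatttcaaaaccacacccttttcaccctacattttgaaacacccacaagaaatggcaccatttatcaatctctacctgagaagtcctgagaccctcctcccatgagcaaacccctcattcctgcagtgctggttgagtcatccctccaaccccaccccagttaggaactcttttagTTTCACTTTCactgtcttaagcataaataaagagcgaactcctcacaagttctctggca
Ifng: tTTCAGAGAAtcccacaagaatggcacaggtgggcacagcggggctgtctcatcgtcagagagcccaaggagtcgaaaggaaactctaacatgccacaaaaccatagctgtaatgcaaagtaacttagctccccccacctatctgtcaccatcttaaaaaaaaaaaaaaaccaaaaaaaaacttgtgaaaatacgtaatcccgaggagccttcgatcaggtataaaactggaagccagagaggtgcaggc
Samhd1: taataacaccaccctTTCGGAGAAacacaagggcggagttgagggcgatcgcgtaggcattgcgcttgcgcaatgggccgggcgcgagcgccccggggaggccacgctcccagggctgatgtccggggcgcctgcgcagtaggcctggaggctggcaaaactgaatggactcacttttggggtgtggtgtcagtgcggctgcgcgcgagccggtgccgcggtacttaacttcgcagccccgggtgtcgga
Csn2: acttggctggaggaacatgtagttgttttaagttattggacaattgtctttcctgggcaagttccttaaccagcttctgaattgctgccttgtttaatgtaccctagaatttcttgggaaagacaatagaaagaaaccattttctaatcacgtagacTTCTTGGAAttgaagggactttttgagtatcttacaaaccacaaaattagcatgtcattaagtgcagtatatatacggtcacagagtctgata

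Programs were followed with 38 lists of genes, of which 511 distinct genes were measured. The lists held 581 places for 553 distinct genes, so some genes stand in more than 1 list. The level of a list is the mean log2 value of its measured members on an array. Replicate 2 was the highest array for 18 lists, replicates 1 and 4 for 9 each and replicate 3 for 2. Replicate 3 was the lowest for 26 lists, replicate 4 for 6, and replicates 1 and 2 for 3 each. The range of the list levels ran from 0.13 for mast cell and eosinophil genes to 2.03 for cytotoxic granule genes, and 14 of the 38 lists had a range over 1. The lists were chosen with results of these arrays known, and the counts of members are set beside the share of all genes with a range over 2-fold, 10.2%. Among those genes over 2-fold, replicate 3 was lowest for 49.2%, and replicates 4 and 2 were highest for 34.7% and 29.1%. Counts of list members by highest or lowest array are to be read beside these shares. When each array was instead centred on the CD3 genes, the median gene moved by up to 0.20 and by a range of 0.37 across arrays, and the highest array remained the same for 20 of the 38 lists and the lowest for 29. The highest array became replicate 4 for 15 of the other 18 lists: mature T cell, T-lineage factor, thymic epithelial, skeletal muscle, S phase, G2 and mitosis, G1, granulocyte, erythroid, mast cell, T-ALL oncogene, heat shock, hypoxia, integrated stress response and p53 target genes. It became replicate 1 for 2, the double-positive and CD3 lists, and replicate 2 for 1, the JAK-STAT5 targets. The lowest array became replicate 3 for all 9 lists in which it changed: endothelial, B-lineage, erythroid, megakaryocyte, mast cell, JAK-STAT5 target, T-ALL oncogene, immediate early and integrated stress response genes.

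**Figure D4:**
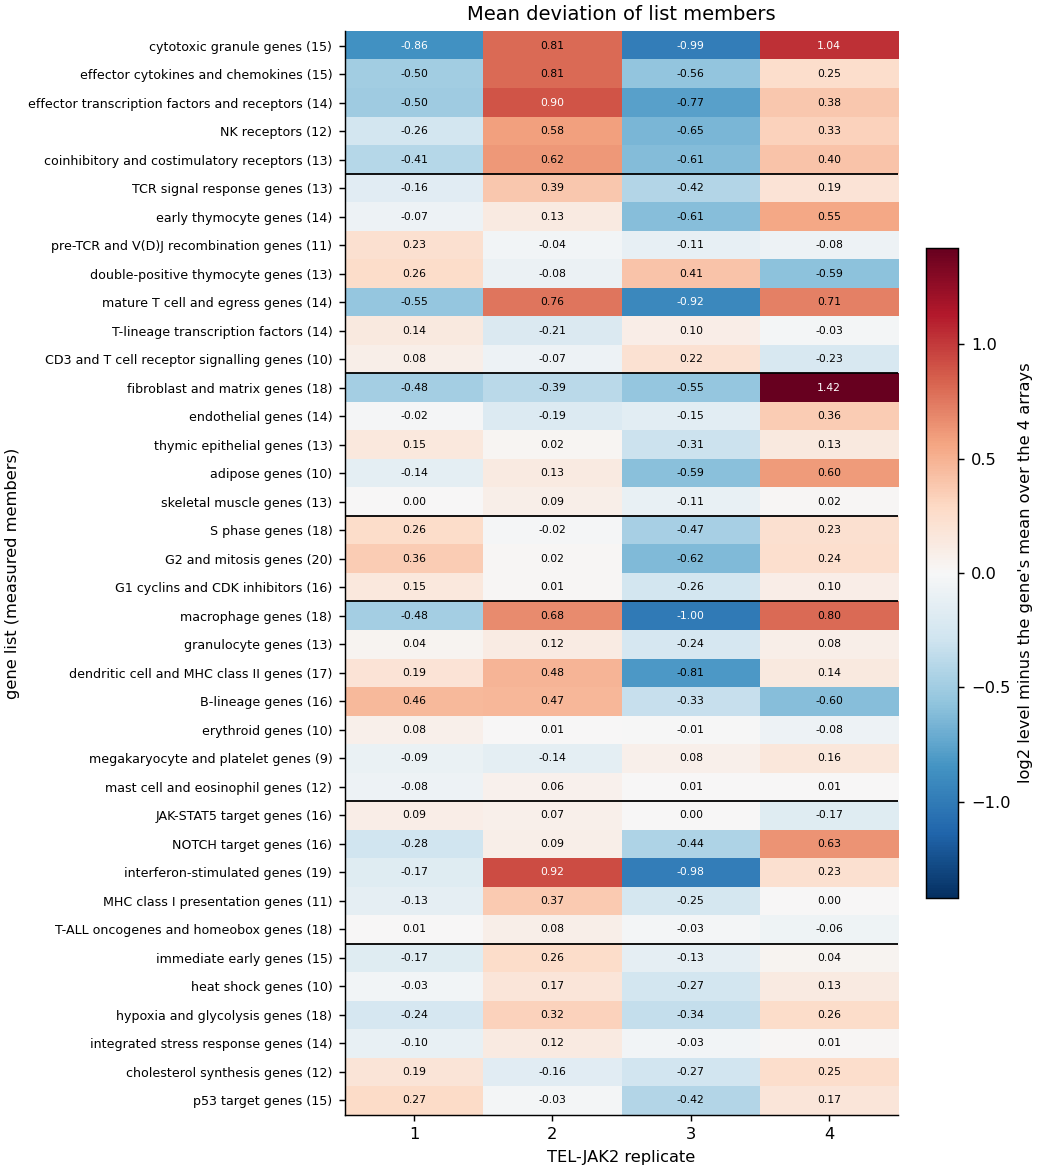
Rows are the 38 gene lists (number of measured members in brackets) and columns the 4 replicates; colour and number give the mean over members of the log2 level minus that gene's mean over the 4 arrays, and black lines separate the effector, thymocyte, stroma, cycle, other cell type, signalling, and handling and metabolism lists. The highest value is 1.42, for fibroblast and matrix genes on replicate 4, and cytotoxic granule genes read -0.86, 0.81, -0.99 and 1.04.

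The effector program separated replicates 2 and 4 from replicates 1 and 3. Cytotoxic granule genes, the proteases and pore formers with which killer lymphocytes lyse targets, had a level of 7.68, 9.35, 7.56 and 9.59. Of 15 measured members, 10 had a range over 2-fold, and 8 of the 10 were high on replicates 2 and 4 together. The median SD of the members was 1.22, against 0.165 over all genes. Besides Gzmb, the list held the pore-forming perforin Prf1 (6.09, 9.44, 6.52 and 8.41), Gzmk, granzyme K (5.14, 7.97, 4.17 and 7.08), and the death ligand Fasl (4.25, 7.13, 3.44 and 6.20). All of them were higher on both replicates 2 and 4 than on replicates 1 and 3. Lamp1, a lysosomal membrane protein (11.73, 11.73, 11.81 and 11.70), and Gzma had the smallest ranges of the list. Gzma read near the top of the scale, where the highest value of the arrays was 14.67, so a larger range may not be measurable there. The split held under the 4 other scalings tried, with replicate 4 the highest and replicate 3 the lowest array in each.

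The granzyme genes of 1 cluster followed 2 patterns. Gzmb and Gzmc (3.78, 6.81, 3.89 and 5.82) were high on replicates 2 and 4. Gzmd, Gzme (3.20, 3.33, 3.37 and 6.41) and Gzmg (3.44, 3.42, 3.48 and 7.90) were high on replicate 4 alone. A further probe set of Gzmd read 3.03, 3.10, 3.20 and 8.04. The probe sets of Gzmd and Gzme carry the suffix _x_at, which marks probes shared with related sequences, so signal can be split among these near-identical genes. Gzmg was looked at after its values were seen.

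Effector cytokines and chemokines had a level of 5.57, 6.87, 5.50 and 6.31, with 7 of 15 members over 2-fold and 8 of the 15 dim by their mean. The range of that level, 1.37, was 0.81 without replicate 2. Ccl5, a chemokine of activated T cells, read 7.39, 11.29, 6.15 and 11.11, and Ccl3, which draws monocytes, read 3.75, 7.0, 3.64 and 6.12. Like Ifng, both were high on replicates 2 and 4. Il10, an anti-inflammatory cytokine, was highest on replicate 2 (3.76, 5.55, 4.03 and 4.50). Lta, lymphotoxin alpha, went another way, at 7.87, 7.81, 7.40 and 6.23, with replicate 4 the low array. The steadiest members with a mean of 6 or more were Osm, oncostatin M, and Tnf, with ranges of 0.49 and 0.54.

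Transcription factors and receptors of effector cells gave a level of 6.67, 8.07, 6.40 and 7.55, and 13 of 14 measured members had a range over 2-fold. The range of that level, 1.67, was 1.15 without replicate 2, or 1.10 with the probe set of 1 gene chosen again. Tbx21, which encodes T-bet, the factor of type 1 effector cells, read 4.74, 8.53, 4.48 and 7.59. Cxcr6, a chemokine receptor of tissue-resident T cells, read 5.51, 8.54, 4.56 and 7.90, and Il2rb, the beta chain of the IL-2 and IL-15 receptors, read 8.81, 10.87, 8.31 and 10.19. Il18r1, a receptor chain for IL-18, followed them (4.67, 6.85, 5.05 and 6.27). Prdm1, which encodes Blimp-1, was highest on replicate 2 (4.85, 7.54, 4.65 and 5.64). The 2 members with the smallest range were Runx3, a factor of CD8 T cells (0.69), and Il12rb1, an IL-12 receptor chain, which was lowest on replicate 4 (9.29, 9.20, 9.51 and 8.39).

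Receptors shared with natural killer cells had a level of 4.79, 5.63, 4.40 and 5.38, and 6 of 12 measured members had a range over 2-fold. Fcgr3, an Fc receptor of NK and myeloid cells, read 5.95, 9.06, 5.10 and 8.45, and Cd160 read 6.21, 8.51, 6.08 and 9.03. Klrd1, which encodes CD94, read 6.70, 7.39, 4.58 and 5.92, with replicate 3 the low array. The activating receptor gene Klrk1 (5.21, 6.21, 4.69 and 5.66) and Slamf7 (5.52, 6.79, 4.77 and 6.37) were also highest on replicate 2 and lowest on replicate 3. Replicate 2 or 4 was the highest array and replicate 3 the lowest for all 6. Of the other members, the receptor Ncr1, which defines NK cells, stayed between 4.33 and 4.61, and the NK receptor genes Klra1 and Klra7 stayed between 3.02 and 4.77; these 3 were singled out after their values were seen. Of the 12 members 9 were dim, and over the 3 others, Klrd1, Fcgr3 and Cd160, the range of the level was 3.06 in place of 1.23. The part of NK cells in the effector pattern was not tested.

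Coinhibitory and costimulatory receptors, which adjust T cell activation, had a level of 7.88, 8.91, 7.68 and 8.70, with 10 of 13 measured members over 2-fold. Lag3, a coinhibitory receptor that binds MHC class II, read 5.13, 8.05, 4.87 and 6.93, and Tnfrsf9, the costimulator 4-1BB, read 6.78, 9.18, 6.84 and 9.91. Havcr2, which encodes TIM-3, read 5.02, 6.76, 4.08 and 5.74. Ctla4, another coinhibitory receptor, was bright and steady (11.80, 11.89, 11.80 and 11.68). Genes induced by T cell receptor signalling had a level of 7.55, 8.10, 7.30 and 7.91, and 6 of 13 had a range over 2-fold. Among them were the factor Irf4 (6.16, 7.39, 5.10 and 6.09), the inhibitory receptor Cd5 (7.98, 8.90, 6.70 and 8.59) and the orphan nuclear receptor Nr4a1 (7.60, 9.07, 7.22 and 8.40). Replicate 2 or replicate 4 was highest for all 6, against 29.1% and 34.7% of all genes over 2-fold. Egr3 and Nr4a3 of this list had ranges of 0.20 and 0.22 on their brightest probe sets. A further probe set of each was high on replicates 2 and 4, for Egr3 at 4.61, 6.94, 3.31 and 6.83 and for Nr4a3 at 5.63, 7.35, 4.69 and 6.99. Another, dim probe set of Nr4a3 ranged over 0.25.

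Macrophage genes moved with the effector genes. Their level was 6.32, 7.47, 5.80 and 7.59, and 14 of 18 members had a range over 2-fold, 7 of them with the pattern 2+4. The complement genes C1qb (7.83, 10.73, 7.15 and 9.96) and C1qa (8.03, 10.24, 7.07 and 10.17) and the mannose receptor Mrc1 (5.52, 7.23, 5.40 and 8.25) were high on replicates 2 and 4. Vcam1, an adhesion molecule of macrophages and stroma, was highest on replicate 4 (6.37, 7.72, 4.58 and 9.53). Spic, the factor of red pulp macrophages, read 4.52, 5.27, 4.53 and 4.57 and was dim on all 4 arrays. The part of macrophages in the effector pattern was not tested.

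Genes of thymocyte stages split by stage. Double-positive genes had a level of 11.23, 10.89, 11.38 and 10.38, and replicate 4 was lowest. Of 13 measured members, 5 had a range over 2-fold, and replicate 4 was the lowest array for 9 of the 13 and for 4 of these 5. Ccr9, a chemokine receptor of thymocytes, read 12.11, 12.43, 12.45 and 9.91, and 2 further probe sets of it were more than 3 lower on replicate 4 than on replicate 3. Satb1, a chromatin organizer of thymocytes, read 13.17, 12.82, 13.26 and 11.89, and Ets2 read 10.60, 9.98, 10.50 and 9.0. Aqp11, an intracellular aquaporin, was low on replicates 2 and 4 (11.17, 10.04, 11.88 and 10.41). Cd2 and Themis had the smallest ranges, 0.26 and 0.53, but 2 further probe sets of Themis ranged over 1.22 and 1.26, lowest on replicate 4. With the arrays centred on CD3 genes replicate 4 was still lowest, but replicate 1 was highest in place of replicate 3. Without replicate 4 the range of the list fell from 0.99 to 0.49.

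Some recombination genes were also lowest on replicate 4, while Ptcra and the NOTCH receptor genes were highest there. Rag2, a subunit of the V(D)J recombinase, read 9.26, 8.94, 7.53 and 5.90, and its partner Rag1 read 13.57, 13.22, 13.20 and 11.76. Dntt, the polymerase that adds bases at the joints (12.89, 12.56, 12.97 and 11.99), and the ligase gene Lig4 (10.63, 9.83, 11.00 and 9.72) were lowest there too. The end-joining genes Xrcc6 (11.54, 11.16, 11.40 and 11.54) and Xrcc5 (7.45, 7.29, 7.25 and 7.68) were not: Xrcc5 read highest on replicate 4, and Xrcc6 lowest on replicate 2. Ptcra, the alpha chain of the pre-T cell receptor, read 8.01, 8.53, 7.22 and 9.73, and the receptor Notch1 read 11.96, 11.64, 10.94 and 12.68. Notch3 was also highest on replicate 4 (9.52, 9.24, 9.32 and 10.80). As these members opposed each other, the level of the joint list stayed between 10.45 and 10.79, although 6 of its 11 measured members had a range over 2-fold.

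Early thymocyte genes, which mark the steps before the double-positive stage, had a level of 7.84, 8.04, 7.30 and 8.46. Of 14 members, 8 had a range over 2-fold, and replicate 4 was highest for 6 of these 8 and replicate 3 lowest for 6. Over all genes with such a range, these shares were 34.7% and 49.2%. Il7r, the receptor of the survival cytokine IL-7, had the widest range, at 8.0, 8.71, 6.12 and 10.93, and its further probe set read 6.61, 6.82, 4.77 and 9.59. Il7r also stands in the lists of mature T cell and egress genes and of NOTCH targets. Cd44, an adhesion receptor, read 7.52, 8.53, 5.95 and 8.80. Hes1, a repressor and NOTCH target, read 5.68, 5.81, 5.69 and 7.92, and Kit, a receptor kinase, read 8.08, 6.51, 7.63 and 8.50, with replicate 2 the low array. The factor Bcl11a had a range of 0.14 on its brightest probe set, but 6 further, dim probe sets ranged over 0.22 to 1.62, and 4 of them were high on replicates 1 and 2. The range of the list level, 1.16, was 0.62 without replicate 3 and 0.74 without replicate 4.

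Mature T cell and egress genes, which thymocytes switch on before they leave, joined the effector split. Their level was 9.12, 10.42, 8.75 and 10.38, and of 14 measured members 9 had a range over 2-fold, 6 of them with the pattern 2+4. Samhd1 read 7.61, 11.17, 6.03 and 9.56, the factor Klf2 8.19, 10.13, 7.91 and 10.95, and the GTPase gene Gimap3 7.96, 10.62, 7.63 and 10.55. Ms4a4b, a membrane protein of T cells, read 9.55, 11.85, 8.83 and 11.16. Replicate 2 was the highest array for the list and replicate 3 the lowest, but replicate 4 was highest when arrays were centred on CD3 genes. Foxo1, a factor that acts upstream of Klf2 and Il7r, had a range of 0.12.

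**Figure D5:**
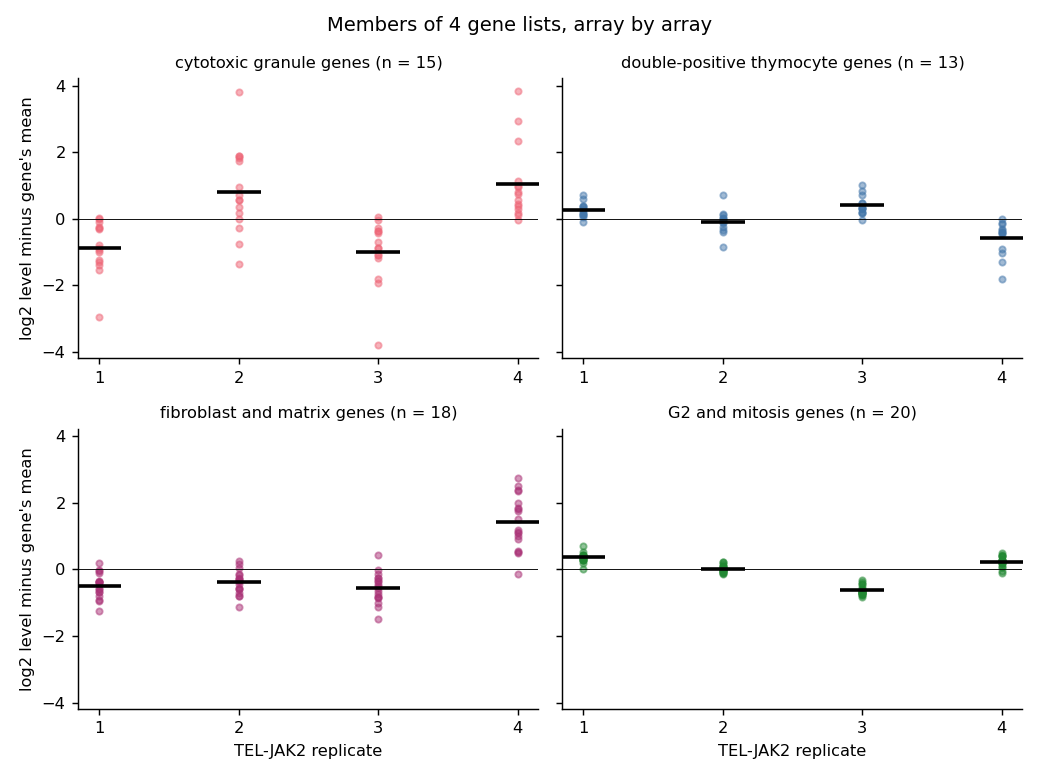
Points are the measured members of 4 gene lists (15, 13, 18 and 20 genes), with the log2 level minus the gene's mean over the 4 arrays on the vertical axis and the TEL-JAK2 replicate on the horizontal axis; black bars are the mean over members. Cytotoxic granule genes are high on replicates 2 and 4, double-positive genes are lowest on replicate 4 (mean -0.59), fibroblast and matrix genes are high on replicate 4 alone (1.42), and all 20 G2 and mitosis genes are lowest on replicate 3.

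Genes of the core T-lineage machinery were bright on all 4 arrays, and the levels of their lists moved by less than 1.5-fold. The 10 measured CD3 and receptor signalling genes had a level of 12.33, 12.17, 12.46 and 12.02 and a median SD of 0.17, close to that of all genes, and 2 (20%) had a range over 2-fold, against 10.2% of all genes. These were Trat1, an adaptor of the receptor complex (12.06, 11.61, 12.05 and 10.79), and Lcp2, the adaptor SLP-76 (12.53, 12.10, 12.80 and 11.72), both lowest on replicate 4. Ptprc, which encodes CD45, had a range of 0.10. T-lineage transcription factors had a level between 10.33 and 10.68 and a median SD of 0.254, above the 0.165 of all genes, and 3 of 14 (21.4%) had a range over 2-fold. These were Gata3 (9.12, 8.17, 9.84 and 8.75), Runx1 (10.41, 9.34, 10.06 and 8.75) and Ikzf2 (10.79, 10.71, 10.11 and 11.40). Ikzf1 and Ets1 had ranges of 0.26 and 0.29, but 2 further probe sets of Ets1 ranged over 0.97 and 0.95, lowest on replicate 4.

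Some segments of the antigen receptors differed by leukemia. Of 9 T cell receptor segments with a probe set, 5 had a range over 2-fold and 4 over 4-fold, against 10.2% and 2.65% of all genes. Trbv13-2 was high on replicates 1 and 3, Trav12n-1 on replicate 3 (6.82, 6.67, 9.78 and 6.36) and Trav12n-2 on replicate 4 (5.38, 6.85, 5.66 and 9.52). Trav6-3 was low on replicate 1 (3.90, 8.16, 7.36 and 7.09). Each of these 4 segments had its own set of high arrays, and closely related segments can share probes. Trbv1 was bright on all 4 arrays, between 13.58 and 13.98, as was Trgv1, between 12.92 and 13.23. Segments were singled out by their names after the values were seen.

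Fibroblast and matrix genes set replicate 4 apart, with a level of 5.41, 5.50, 5.34 and 7.31. Of 18 members, 15 had a range over 2-fold, and replicate 4 was highest for all 15. By their mean 10 of the 18 were dim, and how far this bounds the spread of replicates 1 to 3 was not tested. Col4a1, a basement membrane collagen, read 5.24, 4.91, 4.19 and 8.44, and Col3a1, an interstitial collagen, read 4.88, 5.14, 4.97 and 8.35. Pdgfrb, a growth factor receptor of pericytes and fibroblasts, read 5.69, 5.49, 5.27 and 8.65, and Sparc, a matrix glycoprotein, read 6.28, 6.39, 5.83 and 9.29. Mgp, matrix Gla protein, read 4.81, 6.29, 5.22 and 7.85. The other 3 arrays lay close together, and without replicate 4 the range of the list fell from 1.97 to 0.16, or to 0.10 when the probe sets were chosen again over 3 arrays, which replaced those of 2 of the 18 genes. Fbln1, fibulin 1, was an exception, with replicate 2 the low array (9.27, 7.93, 9.51 and 9.56). Replicate 4 was also the array with the deviating sex-linked transcripts and the highest level of NOTCH target genes, and their part in the matrix result was not tested.

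Endothelial genes were highest on replicate 4 to a smaller extent (5.33, 5.15, 5.19 and 5.71), and without it the range fell from 0.55 to 0.17. Of the 14 members 11 were dim, and over the 3 others the range was 0.26, with replicate 1 highest and replicate 2 lowest. Of the 14 4 had a range over 2-fold, namely Plvap, Vwf, Cdh5 and Esam, and replicate 4 was highest for all 4. Thymic epithelial genes had a level of 6.10, 5.98, 5.64 and 6.09, with replicate 4 highest when arrays were centred on CD3 genes and a range that fell from 0.46 to 0.12 without replicate 3. Krt8 (6.02, 5.96, 5.23 and 7.03) and Krt18 (5.65, 5.51, 4.82 and 6.44), paired keratins of simple epithelia, were highest on replicate 4. The adhesion molecule Epcam was lowest there (11.77, 11.04, 11.21 and 9.67), and the tight-junction gene Cldn4 was highest on replicates 1 and 2 (8.09, 7.36, 5.41 and 5.90). Foxn1, the master factor of thymic epithelium, stayed between 4.70 and 4.94. The list therefore did not vary as 1 unit.

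Among 10 measured adipose genes, 4 had a range over 2-fold. All 4 were lowest on replicate 3, as were 49.2% of all genes over 2-fold. The range of the list level, 1.19, was 0.74 without replicate 3 and 0.72 without replicate 4. Fabp4, a fatty acid carrier of adipocytes, macrophages and endothelium, read 5.68, 5.64, 3.82 and 8.81, and the lipase Lpl read 5.53, 6.63, 5.40 and 7.97. Adipoq, which defines adipocytes, stayed between 3.46 and 3.91, and Lep, leptin, between 3.70 and 3.86. Skeletal muscle genes had a level range of 0.19, and 1 of 13, Tpm2, had a range over 2-fold.

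Proliferation genes were low on replicate 3. G2 and mitosis genes had a level of 9.72, 9.38, 8.73 and 9.59, and replicate 3 was the lowest array for all 20 measured members. Of the 20, 14 had a range over 2-fold, and 13 of the 14 were low on replicate 3 alone. Kif11, a spindle motor, had the widest range (9.14, 8.54, 7.73 and 8.31), followed by the kinase gene Aurkb (9.0, 8.62, 7.79 and 9.05) and Mki67, which encodes the proliferation antigen Ki-67 (11.43, 11.04, 10.43 and 11.63). Ranges in this program were modest, the widest being 1.40, and they ran the same way. Replicate 1 was the highest array, or replicate 4 with the arrays centred on CD3 genes, and without replicate 3 the range fell from 0.99 to 0.34.

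S phase genes followed, with a level of 10.28, 10.00, 9.55 and 10.25 and replicate 3 lowest for 16 of 18 measured members. Without replicate 3 the range of that level fell from 0.73 to 0.28. The 5 members with a range over 2-fold were Ccne2, Cdc6, Rrm2, Gins2 and Rrm1. Rrm2, a subunit of ribonucleotide reductase, read 11.65, 11.00, 10.26 and 11.45, and the licensing factor Cdc6 read 8.76, 7.69, 7.32 and 8.46. Replicates 1 and 4 were too close to order, and replicate 4 was the higher of them under 3 of the 4 other scalings: repeated quantile normalization, cyclic loess and CD3 centring. The licensing helicase gene Mcm7 had a range of 0.34. Among 16 cyclins and inhibitors of the G1 phase, 4 had a range over 2-fold, all lowest on replicate 3 (49.2% of all genes over 2-fold). These were E2f2 (7.64, 8.23, 6.58 and 8.76), Ccnd1, which encodes cyclin D1 (7.75, 7.70, 5.97 and 7.36), the inhibitor Cdkn1a and the ubiquitin ligase gene Skp2. Cdk6 and E2f1 had ranges of 0.28 and 0.23.

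Replicate 3 was also the low array for interferon-stimulated genes and for dendritic cell and MHC class II genes. Interferon-stimulated genes had a level of 7.78, 8.87, 6.97 and 8.18, with 16 of 19 measured members over 2-fold. Replicate 3 was the lowest for all 16 and replicate 2 the highest for 14. Iigp1, an immunity-related GTPase, read 5.62, 11.75, 4.85 and 10.47, and its further probe set read 4.65, 10.50, 4.38 and 9.10. Gbp2 read 10.20, 12.02, 9.52 and 10.53, and Gbp3, of the same GTPase family, read 8.72, 10.83, 7.66 and 8.79. Oas1a, a sensor of double-stranded RNA, read 7.36, 8.53, 6.12 and 7.70. In Gbp2, Gbp3 and Oas1a, replicate 1 was closer to replicate 4 than to replicate 2. Stat2 and Oas2 had ranges of 0.21 and 0.25. Without replicate 3 the range of the list fell from 1.91 to 1.09.

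The level of dendritic cell and MHC class II genes was 8.33, 8.62, 7.33 and 8.28. Of 17 measured members 13 had a range over 2-fold, and replicate 3 was lowest for 11 of the 13. H2-Ab1, a class II chain, read 11.93, 12.30, 9.83 and 11.83, and H2-Eb1 read 11.64, 12.06, 9.94 and 11.71. Ccl17, a chemokine of dendritic cells, was highest on replicate 4 (6.23, 6.07, 5.12 and 7.52). Without replicate 3 the range of the list fell from 1.29 to 0.34. MHC class I presentation genes had a level of 12.09, 12.60, 11.97 and 12.23, and 10 of 11 were highest on replicate 2. Without replicate 2 the range of that level fell from 0.63 to 0.26. The 2 with a range over 2-fold were the transactivator Nlrc5 (10.21, 11.61, 10.13 and 10.86) and the immunoproteasome subunit Psmb9 (10.74, 11.86, 10.50 and 10.84).

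The level of B-lineage genes was higher on replicates 1 and 2 than on replicates 3 and 4 (7.55, 7.56, 6.76 and 6.49), and 11 of 16 measured members were over 2-fold. The members did not all follow this split. Replicate 2 was highest for 8 of the 11 and replicate 1 for 3, and the commonest pattern was high on replicate 2 alone (4 genes). Ms4a1, which encodes CD20, read 7.41, 8.53, 5.71 and 6.52, and Bank1, a B cell scaffold, read 7.34, 8.86, 7.27 and 6.34. Fcmr, the Fc receptor for IgM, read 7.75, 8.94, 6.49 and 7.41. Jchain and Vpreb1 (7.44, 6.43, 6.77 and 4.97), a surrogate light chain gene of precursor cells, did not follow these genes, as both were highest on replicate 1 and lowest on replicate 4. Replicate 1 was the highest array of the list after median centring, and replicate 3 the lowest with CD3 centring. The B cell receptor chains Cd79a (7.29, 8.03, 5.72 and 6.45) and Cd79b (8.13, 8.54, 6.48 and 6.98) were high on replicates 1 and 2, while Pax5, the factor that defines the B lineage, was dim and stayed between 5.45 and 5.64; these 3 were singled out after their values were seen. Of 15 immunoglobulin segments with a probe set, 7 had a range over 2-fold, against 10.2% of all genes. Iglv1 read 10.71, 7.71, 5.69 and 6.08, and Igkv8-30 read 10.40, 9.65, 7.39 and 8.62. Replicate 3 was the lowest array for both. The part of B cells in the low class II level of replicate 3 was not tested.

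Lists of other blood cells had level ranges from 0.13 to 0.36, and most of their members were dim. Over the 3 granulocyte genes that were not dim (of 13) the range was 1.04 in place of 0.36, and over the 2 such erythroid genes (of 10) 0.69 in place of 0.15. Granulocyte genes had a level between 5.14 and 5.50, and 4 of 13 measured members had a range over 2-fold, namely S100a8, Mmp9, S100a9 and Prtn3. S100a8 read 6.43, 7.32, 5.49 and 6.43, while Elane, which defines their precursors, stayed between 5.55 and 5.62. Erythroid genes ranged over 0.15 and Hba-a1, a globin gene, stayed between 3.73 and 4.01. In that list Tfrc, the transferrin receptor of dividing cells, was highest on replicate 1 (12.38, 10.87, 11.52 and 11.55). Of 9 measured megakaryocyte and platelet genes, Pf4 and Vwf had a range over 2-fold, both highest on replicate 4. None of 12 mast cell and eosinophil genes had a range over 2-fold, and the largest of their ranges was 0.65.

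Genes downstream of the driver differed singly, while the level of their list moved over a range of 0.26. The list of JAK-STAT5 target genes read 10.34, 10.32, 10.25 and 10.09, but 4 of 16 (25.0%) had a range over 2-fold and the median SD of the members was 0.286, against 10.2% and 0.165 of all genes. Of these, 3 were lowest on replicate 4: Lta, Bcl2l1 (10.60, 9.94, 10.62 and 9.32), an inhibitor of apoptosis, and Bcl6 (6.81, 6.82, 6.26 and 5.76), a repressor. The remaining gene, Il2ra, the alpha chain of the IL-2 receptor, was highest there (11.22, 11.40, 10.72 and 12.24). Over all 16 members replicate 4 was the lowest array for 10, and each array was the highest for 4. The kinase gene Pim1 (range 0.15) and the feedback inhibitor Cish (0.35) had the smallest ranges. With CD3 centring the lowest array of the list was replicate 3 in place of replicate 4.

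NOTCH target genes had a level of 8.11, 8.48, 7.95 and 9.02. Of 16 members 10 had a range over 2-fold, and replicate 4 was highest for 8 of the 10. Il7r, Dtx1 and Hes1 are shared with the early thymocyte list and Ptcra with the recombination list, so these lists are not separate measures. Dtx1, a ubiquitin ligase induced by NOTCH, read 10.18, 11.03, 8.83 and 11.88, and Nrarp, a feedback regulator of the pathway, read 5.30, 7.16, 6.47 and 7.41. A further probe set of Notch1 read 8.01, 7.93, 7.57 and 9.05. The range of the list level, 1.07, was 0.53 without replicate 4. Hey1, another target, stayed between 5.62 and 5.75. T-ALL oncogenes and homeobox genes had a level range of 0.14. Of 18, of which 9 were dim, Lmo2 (6.96, 7.98, 5.89 and 6.66) and Lmo4 (8.50, 8.28, 9.35 and 8.59) had a range over 2-fold.

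The 6 metabolic and handling lists had level ranges between 0.23 and 0.69. Hypoxia and glycolysis genes had a level of 9.0, 9.56, 8.90 and 9.50, with 10 of 18 measured members over 2-fold. The glucose transporter Slc2a3 read 6.02, 7.78, 5.11 and 8.98 and the mitophagy receptor Bnip3 read 6.86, 8.42, 6.26 and 8.05, both high on replicates 2 and 4. Vegfa, an angiogenic factor, was high on replicates 1 and 3 (10.46, 9.77, 10.83 and 9.34). Of 15 measured p53 target genes, 9 had a range over 2-fold. Replicate 3 was lowest for 7 of the 9, against 49.2% of all genes over 2-fold. Pmaip1, the proapoptotic NOXA, read 6.65, 6.48, 4.58 and 8.14, and Zmat3 read 8.71, 7.84, 6.78 and 9.16. Immediate early genes, which rise with tissue handling, had 4 of 15 members over 2-fold, including Jun (4.82, 6.79, 6.07 and 5.78) and Fos (6.17, 7.38, 6.02 and 7.12). The level of that list was highest on replicate 2, as were 3 of the 4 genes, and 1 was highest on replicate 4. Heat shock genes had 2 of 10, Hspa1b and Hsph1, integrated stress response genes 2 of 14, Asns and Psat1, and cholesterol synthesis genes 4 of 12, Idi1, Cyp51, Sqle and Hmgcs1. The part of tissue handling in the pattern of replicates 2 and 4 was not tested.

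Some genes varied outside all of the lists. Low on replicate 3 alone were Fscn1, an actin bundler of dendritic cells (8.16, 10.01, 5.34 and 9.70), and Ifitm3, which blocks viral entry (8.97, 10.69, 6.57 and 10.28). Low on replicate 4 alone were Myo5b, a vesicle motor (10.07, 10.43, 10.61 and 6.85), Esrp1, a splicing regulator of epithelia (10.94, 10.65, 9.35 and 7.33), and Tet1, a 5-methylcytosine oxidase (6.97, 6.47, 7.83 and 4.43). High on replicate 2 alone was Ifit1bl1, of the interferon-induced IFIT family (7.21, 10.99, 7.01 and 7.18). High on replicate 3 alone were Maf, a factor of T cell and macrophage differentiation (9.55, 8.71, 12.55 and 10.05), and Ncam1, a neural adhesion molecule (4.99, 5.08, 8.41 and 5.52). The pattern high on replicates 2 and 3 held 2 genes, Nid1, a basement membrane protein (4.80, 7.93, 8.47 and 6.20), and Wls, which carries WNT ligands to the surface (5.78, 8.44, 8.19 and 6.59).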

How the data were processed

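The 4 arrays labelled TEL-JAK2 were used, and 3 columns of per-sample values were not used. The authors deposited log2 expression values, 1 per probe set and array, between 2.65 and 14.67 here, made with RMA per the submitters' processing notes, whose version is not given in the sources. RMA gives the arrays a common distribution, which hides differences in total RNA, and no further scaling was applied. No detection calls or scan batches were used.

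Probe sets were named by the platform annotation: of 45037, 34945 had 1 symbol, 932 several and 9160 none, and 34741 of those with 1 symbol matched RefSeq (GRCm38.p6). The 1147 probe sets of 626 X and Y genes were left out, which left 17567 genes. No test between groups was made; Dixon's test for 1 outlying array was applied to genes and lists. Members and lists were chosen with earlier results of these data known; 511 of 553 listed genes were measured and the others were not analysed here, 2 found under an older symbol.

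Genes were named from sets fixed by rule, and not every gene of a set is given in the text. The sets were the 20 genes of highest mean, the 20 of largest SD and the 5 of smallest SD at a mean of 9 or more. Further sets were the 5 widest of each pattern with 20 or more genes and, in each list, up to 5 members of widest and 2 of narrowest range (mean 6 or more). Jak2, Etv6, Notch1 and members of any count of 5 or fewer were also included. Left out were, among others, the widest genes of the patterns 1+2+3 and 3. Chosen after their values were seen were Adipoq, Cd3d, Cd79a, Cd79b, Cd8a, Dntt, Elane, Foxn1, Gzmc, Gzme, Gzmg, Hba-a1, Hey1, Klra1, Klra7, Lep, Lig4, Ncr1, Pax5, Spic, Zfp982 and the receptor segments other than Trbv13-2 and Trav12n-1.

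The pattern script was tested on simulated data of 4 arrays with all genes. Every gene was given the same normal noise, with an SD of 0.165, the median over genes. It recovered 100 of 100 patterns set at 1.5 log2 and 100 of 100 at 3 log2, and 2 of 17367 unchanged genes had a range over 2-fold. Steps that far above the noise make recovery near certain, and the SD at the 90th percentile of the measured genes was 0.453. The run checks the script and gives no false rate for the 1800 genes with a range over 2-fold. Alternatives were other probe set choices, filters, scalings, thresholds and each array left out. Python 3.11.15, pandas 2.3.3, numpy 2.4.6, matplotlib 3.10.9, and R 4.3.3 with limma 3.58.1 (cyclic loess only) were used.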

Additional observations from a re-analysis of the deposited data

Results flagged for a closer look

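In 1 of 38 lists and 18 of 213 genes named above, 1 array lay far from the other 3. The gap to the nearest array took up more of the whole range than the critical share of Dixon's test for 4 samples at 95%. Chance flags about 1 in 20 groups. Of all genes 5.65% were flagged, and of the genes with a range over 2-fold 7.89%. Many of the named genes were picked for a wide range, so the latter share is the nearer comparison. Some were picked as the widest of a pattern with 1 array apart, which is set by the same gap, or after their values were seen. Their flags follow from that choice and are no separate support. The list was that of fibroblast and matrix genes, with a gap of 0.917 of its range and replicate 4 above the others.

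Replicate 4 stood above the others in 9 of the genes: Gzmg (0.986 of the range), Gzme (0.946), Gzmd (0.944), Hes1 (0.942), Col3a1 (0.926), Csn1s2a (0.886), Pdgfrb (0.875), Adipoq (0.859) and Sparc (0.838). It stood below them in Ccr9 (0.868) and Myo5b (0.855). Replicate 2 stood above the others in Ifit1bl1 (0.947), Spic (0.942) and Rpl39l (0.854). Replicate 3 stood above them in Trav12n-1 (0.866) and Ncam1 (0.848), and below them in Ly6k (0.910) and Ccne2 (0.863). Adipoq and Spic were flagged on small ranges, 0.45 and 0.74 log2, and were dim.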

How the results depend on the processing

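The median SD, the agreement between probe sets and the counts of genes with a range over 2-fold and 4-fold moved by less than 1.5 times under the probe set choices that keep 1 value per gene, the filter and the scalings tried. With a range over 1.5-fold 4427 genes passed in place of 1800, with 3-fold 758, and with every probe set counted singly 3073. Without 1 array in turn the counts ran from 1102 (without replicate 4) to 1563 for 2-fold and from 270 (without replicate 3) to 410 for 4-fold.

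Among genes with a range over 2-fold the patterns held 266 (2+4), 323 (1+2+4), 322 (4), 232 (1+2+3), 151 (2) and 125 (3) genes. Centring on CD3 genes gave 149 genes low on replicate 3 alone, 143 high and 19 low on replicate 4 alone, and 14 high on replicate 3 alone. The mean of all probe sets gave 25 genes low on replicate 4 alone, and without dim genes 51 were high on replicate 4 alone. Patterns merge when an array is left out, by construction: without 1 array in turn, they held 93 to 204 (2+4), 59 to 204 (1+2+4), 77 to 183 (4) and 22 to 144 (2).

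For the levels of lists, CD3 centring moved 16 of 38 ranges by 1 SD of the 4 levels or more. It widened 15 of them: S phase genes to 1.11, cholesterol synthesis to 0.93, endothelial to 0.92, thymic epithelial to 0.85, heat shock to 0.80, G1 to 0.75, granulocyte to 0.73, immediate early to 0.65, recombination to 0.54, skeletal muscle to 0.53, megakaryocyte to 0.49, integrated stress response to 0.45, mast cell to 0.41, T-ALL oncogenes to 0.37 and erythroid to 0.34. It narrowed the CD3 list, on which it centres, from 0.44 to 0.10. Without dim genes 7 of 37 lists moved: NK receptors from 1.23 to 3.06, granulocyte from 0.36 to 1.04, thymic epithelial from 0.46 to 0.83, erythroid from 0.15 to 0.69, endothelial from 0.55 to 0.26, skeletal muscle from 0.19 to 0.28 and T-ALL oncogenes from 0.14 to 0.25. The mean of all probe sets moved 1 list, adipose, from 1.19 to 0.69, and the median in place of the mean of members moved 8.

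Without 1 array in turn, with probe sets chosen again, the ranges ran from 0.49 to 0.99 for double-positive genes, 0.10 to 1.97 for fibroblast and matrix genes, 0.28 to 0.73 for S phase genes, 0.34 to 0.99 for G2 and mitosis genes, 0.34 to 1.29 for dendritic cell and MHC class II genes and 1.09 to 1.91 for interferon-stimulated genes. Keeping the probe sets, an alternative chosen after seeing the data, gave 0.16 as the lowest for fibroblast and matrix genes. The ranges of the cytotoxic granule, effector factor, mature T cell and macrophage lists moved by less than 1 SD of the 4 levels. No paired analysis was possible because there is 1 group and no test of a contrast. Signal over background is not given in the values used here, so how far a dim gene's range is bounded was not tested.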
